A study of Homo sapiens with 24 samples.

Results

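The translational efficiency (TE) of mRNAs in HCT15, a human colorectal cancer cell line, was compared with that in 841CON, cells that the labels describe as normal colon epithelium. TE is the level of ribosome footprints of a gene relative to the level of its RNA. The comparison uses 8 of the 24 libraries of the series, chosen by sample title: 2 libraries of ribosome footprints (RPF) and 2 of input RNA (INPUT) from parental HCT15, and 2 of each from 841CON. Both lines carry the genotype label WT, and all cells received cycloheximide at 100 µg/mL for 10 minutes before lysis. HCT15 was grown in DMEM and 841CON in EMEM, so effects of the line and of its medium cannot be told apart. The design text sets each cancer line against 841CON to ask how TE differs across mRNAs. The other 16 libraries, from HCT116, SW620 and HCT15 carrying a vector or extra COPS7B, entered the same fit and so bear on its gene filter, estimates and spread, and those of vector-carrying HCT15 are also shown for single genes.

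In ribosome profiling, elongating ribosomes are arrested, unprotected RNA is removed, and the protected fragments are sequenced. A gene's footprint count follows both the amount of its mRNA and how many ribosomes sit on each copy, and division by INPUT is used to adjust for the amount of mRNA. Fragmentation and selection of the INPUT RNA are left unstated by the labels, which limits what the ratio of footprints to INPUT measures. The deposited tables name genes by Ensembl identifier, and neither they nor the reference tables used here pair those identifiers with gene names. No gene family, pathway or cell type marker could therefore be examined, the labelled cell types were not checked against markers, and changes are described by level, size and assay.

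Counts in the genes shared by both kinds of table ranged from 1473562 to 4679279 in the RPF libraries and from 1383600 to 6596429 in the INPUT libraries. The deeper library of 3 of the 4 groups detected fewer genes than the shallower one. HCT15 RPF replicate 2 detected 11121 genes with 4679279 counts, and replicate 1 detected 11546 with 1473562. HCT15 INPUT replicate 1 detected 10942 genes with 4309463 counts and replicate 2 detected 12311 with 1951142. In 841CON, INPUT replicate 2 detected 10705 genes with 6596429 counts, against 12226 genes in INPUT replicate 1 with 1383600 counts. The 841CON RPF libraries detected 10760 and 10202 genes with 3611421 and 1593920 counts.

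Footprints were spread over more genes in HCT15 than in 841CON: the 100 most counted genes held 21.3% and 21.3% of the counts of the HCT15 RPF libraries, against 28.5% and 28.8% in 841CON. The part of this difference in the TE calls was not tested. Replicates differed widely in 3 of these 4 groups. The coefficient of variation between replicates, beyond sampling noise, was 0.624 for HCT15 RPF and 0.607 for HCT15 INPUT, against 0.0481 for 841CON RPF and 0.730 for 841CON INPUT. The 841CON RPF pair differed by 1.64 times the chi-square value per gene that sampling noise gives and was kept as 2 libraries. This value cannot show that they are independent replicates, and a fit with close pairs summed is given below. CPM stands for counts per 1e+06 counts in the shared genes, here unscaled and from the test onward with library sizes scaled by trimmed means. Among genes at 20 CPM or more in 841CON INPUT replicate 1, 114 of 7004 had no count in replicate 2. No label says that the replicates are separate cultures, and the p-values therefore reflect only library-to-library spread, part of which may be technical.

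**Figure D1:**
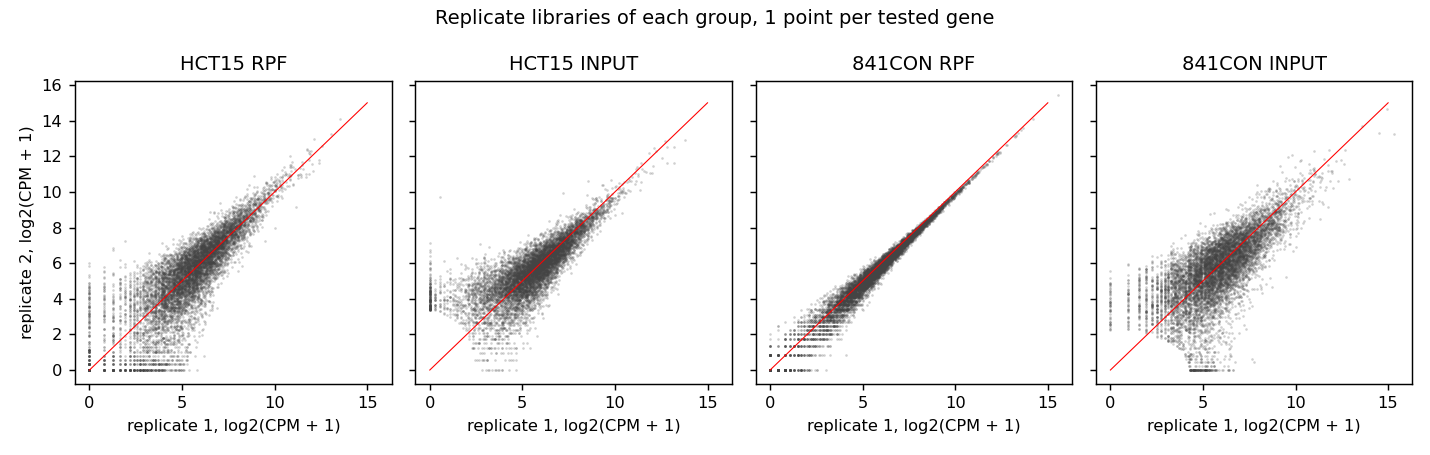
Levels in replicate 2 against replicate 1 of each group, as log2(CPM + 1), with scaled library sizes, 1 point for each of the 8876 tested genes and a line of equality. The 841CON RPF libraries lie close to the line, while the other 3 pairs scatter widely and hold genes at 0 in 1 library only.

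Higher TE in HCT15 was called more often than lower TE. The test covered 8876 genes and called 1483 of them, or 16.7%. Higher TE was called in 1032 genes, 11.6% of the total, and lower TE in 451 genes, 5.08% (edgeR's quasi-likelihood test, Benjamini-Hochberg adjusted p under 0.05, two-sided, all 24 libraries in the fit). A total of 2733 genes had an unadjusted p under 0.05. The median log2 TE change over all tested genes was 0.30, and the middle 50% of genes lay between -0.70 and 1.33. This median depended on the scaling and on single libraries. It was 0.15 without scaling by trimmed means, -0.01 under DESeq2, -0.03 with the 8 compared libraries alone and 0.04 with close replicate pairs summed. It was 0.10 without HCT15 INPUT replicate 1 and 0.09 without 841CON INPUT replicate 1, so no general direction is read from it. The direction of the balance held under DESeq2, but its split was 1017 higher and 861 lower, or 54.2% higher against 69.6% by edgeR. The balance thus shifts with the scaling, as the median does. It did not hold among the genes called in every one of 19 alternatives described below, 33 higher and 37 lower.

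The calls were of large fitted changes. The median log2 change was 3.42 among the genes with higher TE and -2.76 among those with lower TE, and the smallest called changes were 1.19 and 1.23 in size. The fitted change was at least 4-fold among 858 of 1032 higher calls and 370 of 451 lower calls. It was at least 16-fold for 444 of the higher genes (43.0%) and for 94 of the lower ones (20.8%). These sizes include fitted values for 197 higher and 26 lower genes with no footprint in 1 line, which are not bounds. Among calls counted in all 8 libraries the medians were close in size, at 2.55 for higher and -2.61 for lower TE. The median standard error over all tested genes was 0.74 on the log2 scale, so smaller changes were rarely detectable with these libraries.

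Called TE changes were mostly seen in the footprints. In 570 of the 1032 genes with higher TE the fitted footprint level was at least 2-fold higher in HCT15 while INPUT lay within 2-fold. In 217 of the 451 genes with lower TE it was at least 2-fold lower while INPUT again lay within 2-fold. Footprints moved further than INPUT in the direction of the call for 85.2% of the higher and 83.6% of the lower genes. The difference of these same 2 changes made the calls, and such shares were not computed over all tested genes. They are therefore a description of the called genes only. The median level of the genes with higher TE was 46.1 CPM for HCT15 footprints, against 5.44 CPM for 841CON footprints, and 41.6 CPM for HCT15 INPUT, against 48.6 CPM for 841CON INPUT. For the genes with lower TE it was 15.7 CPM for HCT15 footprints, against 85.6 CPM for 841CON footprints, and 43.7 CPM for HCT15 INPUT, against 49.7 CPM for 841CON INPUT. Genes were tested only where INPUT averaged 10 counts or more in each line, with no such minimum for footprints in each line, so footprints could be sparse where INPUT could not. Over all tested genes the median footprint level was 45.6 CPM in HCT15 and 45.1 CPM in 841CON. Among the higher genes the median log2 change was 3.20 for footprints and -0.30 for INPUT. Among the lower genes it was -3.03 for footprints and -0.08 for INPUT.

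Opposed movements were less common. Footprints were at least 2-fold higher and INPUT at least 2-fold lower in 176 of the genes with higher TE, and the reverse held for 48 of those with lower TE. A change of INPUT of 2-fold or more with footprints within 2-fold accounted for 95 higher and 51 lower genes. In 167 of the higher and 124 of the lower genes INPUT moved at least 2-fold in the same direction as footprints, which moved further. INPUT moved further than footprints in the same direction in 5 higher and 4 lower genes, and neither assay reached 2-fold in 19 higher and 7 lower genes.

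**Figure D2:**
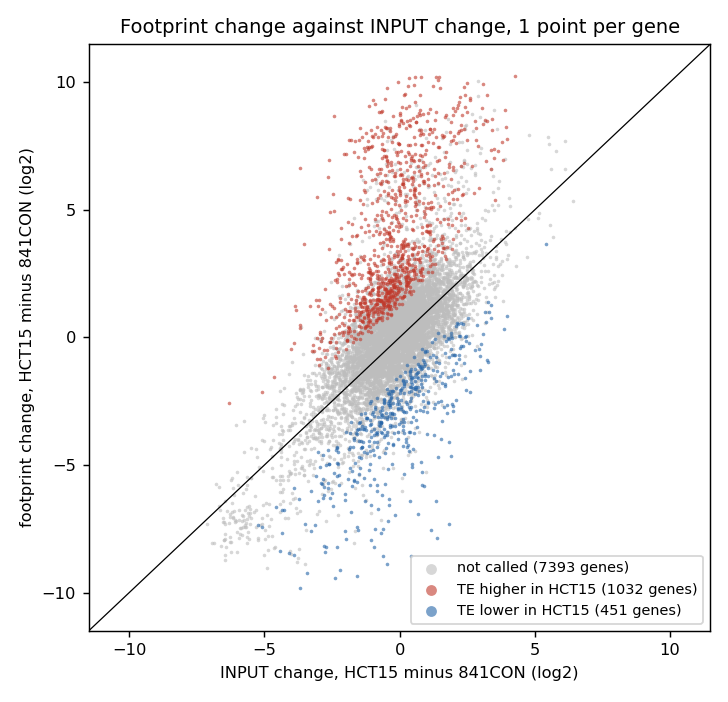
Fitted footprint change against fitted INPUT change, HCT15 minus 841CON, both in log2, with 1 point per tested gene. The 1032 genes with higher TE in HCT15 (red) lie above the diagonal of equal change and the 451 with lower TE (blue) below it, and most of both kinds are displaced along the footprint axis.

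Across all tested genes, the median footprint change had the direction of the INPUT change wherever INPUT differed at least 2-fold between the lines. For 471 genes with INPUT at least 4-fold higher in HCT15, the median log2 change was 2.48 for INPUT and 2.56 for footprints. For 857 genes with INPUT at least 4-fold lower, the medians were -2.83 for INPUT and -2.85 for footprints. For 1342 genes with INPUT 2-fold to 4-fold lower, the medians were -1.39 for INPUT and -0.78 for footprints. For 1120 genes with INPUT 2-fold to 4-fold higher they were 1.40 and 1.38. For 5086 genes with INPUT within 2-fold they were -0.03 and 0.36. The zero of both changes depends on the scaling, so how closely footprints followed INPUT is not read from these medians. TE calls were found at every size of INPUT change. The share of genes with lower TE was 9.77% where INPUT was at least 4-fold higher and 6.53% where it was at least 4-fold lower. It was 4.40% where INPUT lay within 2-fold. In the same order, the share with higher TE was 13.2%, 10.2% and 11.6%. INPUT is itself a part of TE, so these shares are a description only. The changes of INPUT and footprints correlated at r = 0.576 across 8876 genes, which share no library between the 2 measures but are not independent replicates.

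Part of the higher calls were of genes with no footprint count in 841CON. Of the tested genes, 69 had no footprint count in either HCT15 library and 349 had none in either 841CON library. Among the genes with higher TE, 197 (19.1%) had no 841CON footprint, and among those with lower TE, 26 (5.76%) had no HCT15 footprint. Their fitted changes are not bounds, so bounds were computed from a floor of 3 counts over the empty group and the Poisson 95% lower limit on the counts of the line with footprints. On this scale the median bound was at least 10.4-fold higher TE for the 197 genes and at least 9.06-fold lower TE for the 26 genes. The bound was at least 4-fold for 161 of the 197 and 20 of the 26. These bounds cover counting error of the footprints only and leave out the spread of INPUT. Such genes passed the footprint filter through other groups and were called on the same counts, so large bounds are partly built in. Their number varied with the setting: 124 higher and 11 lower with the compared libraries thinned to equal depth. It was 59 and 5 with close replicate pairs summed, and 301 and 38 with no filter on low counts.

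Genes counted in all 8 libraries made up 7777 of the 8876 tested genes (87.6%), and held 681 of the higher and 393 of the lower calls. Among these higher calls the median log2 change was 2.15 for footprints and -0.48 for INPUT, and among the lower calls it was -2.76 for footprints and 0.04 for INPUT. The 4 footprint-to-INPUT ratios of HCT15, from each RPF library over each INPUT library, all lay above those of 841CON for 1543 of the 7777 genes (19.8%), and all below for 1090 (14%). Such separation held for 663 of the 681 higher and 390 of the 393 lower calls. The ratios come from the libraries that made the calls, so their separation is no further support for them.

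The share of genes called for higher TE was largest in the lowest bin of level. Tested genes were placed in 5 bins of equal size by their mean level over both assays and lines, averaged as log2(CPM + 1) and given as CPM. In the lowest bin, up to 19.0 CPM, 23.9% of genes had higher and 5.35% lower TE. In the highest bin, from 112 CPM upward, 6.48% had higher and 4.11% lower TE. The level includes the footprints of both lines, so a gene with few or no 841CON footprints is placed lower by the change itself, and part of this pattern is built in. The median log2 TE change was 1.30 in the lowest bin and lay between 0.17 and 0.27 in the other 4. The median standard error was 1.34 in the lowest bin and 0.54 in the highest, so error was largest where the most genes were called.

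**Figure D3:**
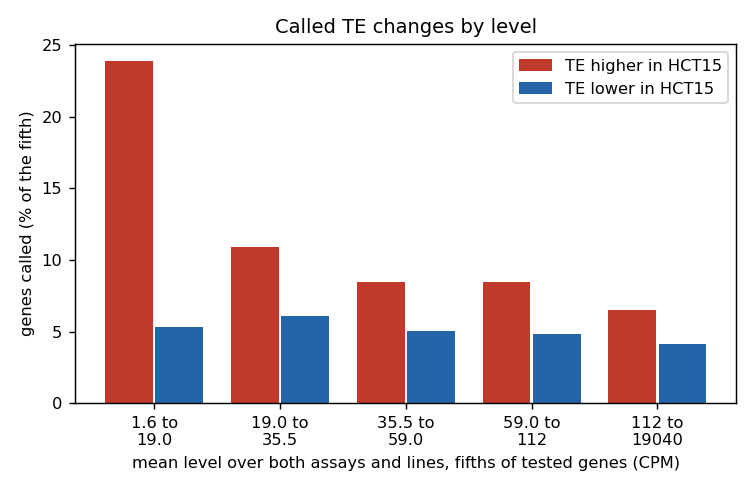
Percentage of genes called for higher (red) or lower (blue) TE in HCT15, in 5 bins of tested genes by mean level in CPM over both assays and lines. The share with higher TE is 23.9% in the lowest bin and 6.48% in the highest, while the share with lower TE lies between 4.11% and 6.08% in all bins.

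Single genes show what such changes look like in the libraries. Among called genes with adequate counts in both assays of both lines and ratios that did not overlap, 467 had higher and 266 lower TE, and the pair with the smallest p in each direction is given by identifier. ENSG00000011132 had footprints at 93.0 and 129 CPM in HCT15, against 6.28 and 3.83 CPM in 841CON. Its INPUT stood at 17.5 and 28.4 CPM in HCT15, against 66.9 and 38.3 CPM in 841CON. Both assays thus separated the lines, in opposite directions, and the ratios were 3.28 to 7.35 in HCT15 and 0.0572 to 0.164 in 841CON. The log2 TE change was 5.58 (SE 0.65, edgeR adjusted p = 7.14e-05). That its ratios did not overlap was a condition of its selection. In 841CON its footprints were 17 and 5 counts, which limits the precision of the fold.

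ENSG00000013306 had footprints at 378 and 242 CPM in HCT15, against 10.7 and 9.19 CPM in 841CON. Its INPUT was 355 and 331 CPM in HCT15, against 220 and 145 CPM in 841CON. Footprints and INPUT were both higher in HCT15, footprints far more so, and neither assay overlapped between the lines. The ratios were 0.682 to 1.14 in HCT15 and 0.0418 to 0.0737 in 841CON, and the log2 TE change was 4.02 (SE 0.50, edgeR adjusted p = 8.12e-05).

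ENSG00000062716 had lower TE in HCT15, with footprints at 23.8 and 25.7 CPM, against 203 and 157 CPM in 841CON. Its INPUT was 68.1 and 92.2 CPM in HCT15, against 36.8 and 56.4 CPM in 841CON. More INPUT thus went with fewer footprints in HCT15, and neither assay overlapped between the lines. The ratios were 0.258 to 0.377 in HCT15 and 2.78 to 5.51 in 841CON, and TE fell by 3.61 on the log2 scale (SE 0.45, edgeR adjusted p = 7.75e-05).

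ENSG00000111897 had footprints at 14.7 and 27.9 CPM in HCT15, against 724 and 658 CPM in 841CON. Its INPUT was 48.6 and 43.8 CPM in HCT15, against 140 and 58.8 CPM in 841CON. Footprints and INPUT were both lower in HCT15, and neither assay overlapped between the lines, although the 841CON INPUT libraries stood well apart from each other. The ratios were 0.302 to 0.637 in HCT15 and 4.68 to 12.3 in 841CON, and TE fell by 3.89 on the log2 scale (SE 0.53, edgeR adjusted p = 0.000175).

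**Figure D4:**
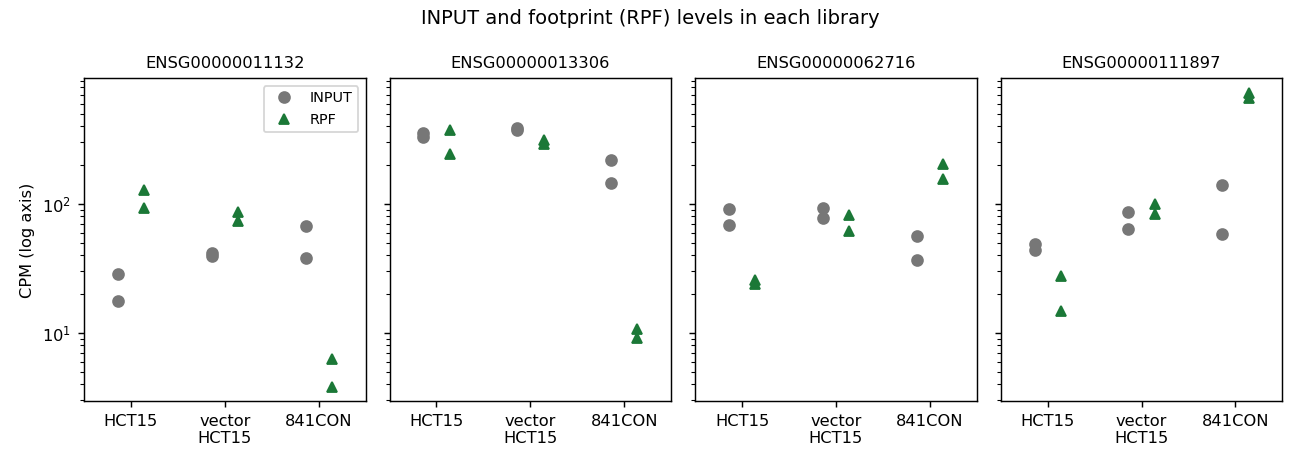
INPUT (grey circles) and footprint (green triangles) levels of 4 genes in each library of HCT15, vector-carrying HCT15 and 841CON, in CPM on a log axis, with 1 point per library. For the first 2 genes, footprints stand above or near INPUT in parental HCT15 and far below it in 841CON. For the last 2 they stand below INPUT in parental HCT15 and above it in 841CON, and near INPUT in vector-carrying HCT15.

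In HCT15 carrying the vector, footprints and fitted TE of these 4 genes lay on the same side of 841CON as in parental HCT15. INPUT of ENSG00000011132 was 39.3 and 41.8 CPM and that of ENSG00000111897 was 86.1 and 64.5 CPM there, within the range of the 841CON INPUT libraries for both genes. The vector comparison uses the same 841CON libraries, so it is no independent check of them. Footprints of ENSG00000011132 were 86.9 and 73.3 CPM there, and those of ENSG00000013306 were 312 and 290 CPM. Footprints of ENSG00000062716 were 61.6 and 82.2 CPM and those of ENSG00000111897 were 83.0 and 99.2 CPM, above both parental HCT15 libraries in each case. The fitted log2 TE change of the vector line from 841CON was 4.28 and 3.83 for the genes named first, and -2.17 and -2.55 for ENSG00000062716 and ENSG00000111897.

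As a description of all genes, TE values of the 2 lines were loosely correlated across genes (Pearson r of log2 TE). Over the 7777 genes counted in every compared library, the mean log2 TE of HCT15 correlated with that of 841CON at r = 0.428. Between replicates numbered 1 and 2 the correlation was 0.406 in HCT15 and 0.604 in 841CON, and single-library TE of HCT15 against that of 841CON gave 0.259 to 0.372 over 4 pairings. Over 7718 genes also counted in all vector-line libraries, the mean TE of parental HCT15 correlated at 0.632 with the vector line and at 0.428 with 841CON. None of these pairs shares a library, but gene length and base composition are common to all.

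The number of calls depended on the libraries and on how their spread was estimated. Without 841CON RPF replicate 1 it was 447 higher and 182 lower, and without replicate 2 it was 496 and 253. Without 841CON INPUT replicate 1 the lower calls were 767, and without HCT15 RPF replicate 1 they were 787. With the 841CON RPF pair and the other close pairs of the series each summed into 1 library, 142 higher and 87 lower genes passed. Fitted on the 8 compared libraries alone, edgeR called 0 genes, with 1429 at an unadjusted p under 0.05, and there the 4 named genes had adjusted p-values of 0.0951 to 0.0970. The genes called the same way by edgeR, DESeq2 and limma numbered 313 higher and 81 lower. In all 8 fits that left out a compared library, 315 of the 1032 higher and 140 of the 451 lower genes were called each time.

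A total of 33 higher and 37 lower genes were called in every one of 19 alternatives, which left out the fit of the 8 compared libraries alone and the minimum of 50 counts. The 4 named genes were among them, which their choice by smallest p in the same libraries made likely. One of these alternatives admits only genes counted in all 8 libraries, so footprints in both lines are fixed by the selection. The median footprint level of the 33 genes was 63.1 CPM in HCT15 and 2.44 CPM in 841CON, with INPUT at 34.1 CPM in HCT15 and 52.6 CPM in 841CON. For the 37 genes the median footprint level was 35.2 CPM in HCT15 and 468 CPM in 841CON, with INPUT at 74.0 CPM in HCT15 and 99.7 CPM in 841CON.

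**Figure D5:**
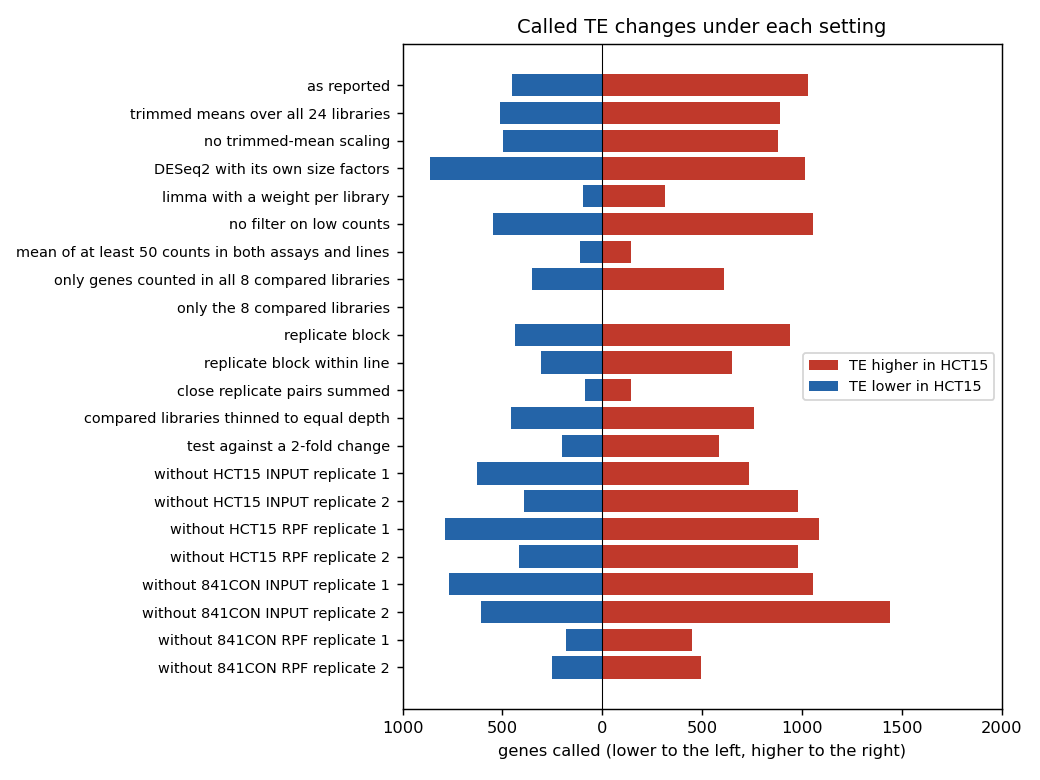
Genes called for higher (red, to the right) and lower (blue, to the left) TE in HCT15 under each setting, with the reported setting at the top. Higher calls outnumber lower ones in every setting that made calls, and the fit of the 8 compared libraries alone made none.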

How the data were processed

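Deposited values were raw counts, 1 table per library with a row for each Ensembl identifier. Reads were handled with HTSeq 2.0.2, STAR 2.7.9 and cutadapt 3.5 on GRCh38, per the submitters' processing notes. These sources do not give the annotation release, strand setting or treatment of multiply aligned reads, so counts of overlapping, antisense or near-identical genes are uncertain. RPF tables list 20426 genes, all among the 60623 of the INPUT tables, and only these were used.

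One edgeR quasi-likelihood model (edgeR 4.0.16, R 4.3.3) with a mean for each of 12 groups was fitted to all 24 libraries. It left 12 residual degrees of freedom, against 4 with the 8 compared libraries. In the groups outside the comparison, the coefficient of variation between replicates ran from 0.0382 (HCT116 INPUT) to 0.394 (SW620 RPF). It was 0.607 for HCT15 INPUT, 0.624 for HCT15 RPF and 0.730 for 841CON INPUT. The spread estimated over all libraries may therefore be too small for these groups, and the p-values too low. Genes passed edgeR's expression filter (minimum count 10) within each assay, which kept 11938, and were tested where INPUT averaged 10 counts or more in each line. Trimmed-mean scaling was done within each assay, so a shift shared by every mRNA would be invisible. CPM is counts divided by the scaled library size, per 1e+06. Alternatives used DESeq2 1.42.0 and limma 3.58.1. The procedure was also run on simulated data with the same spread in every library. That run does not cover the unequal spread of the groups here, so nothing is concluded from it. No file pairs identifiers with names, so planned gene lists and markers were not used. Genes named were the first 2 in each direction by p among calls with mean counts of at least 50 in INPUT and 10 in RPF in both lines and ratios that did not overlap. The comparison and choices were made with earlier results of these data known. Intervals and floors cover counting error only.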

Additional observations from a re-analysis of the deposited data

Results flagged for a closer look

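A share of INPUT counts lay in the 40197 genes that only the INPUT tables list, outside the TE comparison. It was 25.1% and 17.0% in HCT15 INPUT replicates 1 and 2, against 14.4% and 27.6% in 841CON INPUT replicates 1 and 2. These values were singled out because they are signal in data that the comparison did not use. In each line the higher share belonged to the deeper library, which also detected fewer of the shared genes, and the ranges of the lines overlap. Its part in the TE calls was not tested.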

How the results depend on the processing

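Of 21 alternatives, 20 made TE calls, and in each of these 20 higher calls outnumbered lower ones, at 53.9% to 76.3% of calls. No called gene turned direction in any alternative. Turning needed a call in the opposite direction from the same counts, which was unlikely from the start, so it is no separate support. The alternatives refit the same counts, so the shared balance is no independent agreement either. That balance did not hold among the genes called in every one of 19 alternatives, 33 higher and 37 lower. Counts of higher and lower genes beyond 1.5 times the reported 1032 and 451 were 315 and 98 in limma with weighted libraries, 144 and 111 where every assay and line had to average 50 counts (4535 tested), 142 and 87 with close replicate pairs summed, 585 and 202 when tested against a 2-fold change, and 0 and 0 with only the 8 compared libraries. DESeq2 called 861 lower genes, and 609 higher genes passed among those counted in all 8 libraries. Leaving out 1 library in turn gave 447 to 1441 higher and 182 to 787 lower genes.

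The replicate number as a block gave 941 higher and 436 lower genes, and a replicate block within line, pairing INPUT and RPF of a number, gave 648 and 306. Whether numbers pair these libraries was not settled. INPUT and RPF deviations of the same number correlated at -0.0128 in HCT15 and -0.0422 in 841CON. Over all lines the correlation ran from -0.142 (SW620) to 0.231 (vector-carrying HCT15). It cannot decide the pairing, as the 841CON RPF libraries hardly deviate and noise between libraries can hide a shared part. The 4 named genes passed in every alternative that tested them except the 8 compared libraries alone. They were chosen by smallest p from the same libraries, so this is no further support for them. ENSG00000011132 and ENSG00000013306 were not tested under the minimum of 50 counts. Causes of these differences were not tested, except where fewer genes or libraries entered by construction. With 2 libraries per group, depth and spread leave small changes undetectable.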
